A study of Mus musculus with 8 samples.

Results

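The genes described here are 49 genes for core proteins of the spliceosome, chosen by name with earlier results of these data known. They comprise the U1, U2, U5 and tri-snRNP proteins, the Sm core, the Prp19 and activated complexes, DEAH-box helicases and SR-related proteins. All 49 had a span in the RefSeq gene table of mouse build GRCm38.p6 (mm10). A peak belonged to a gene if its midpoint lay in that span, on the strand that held most of the gene's called peaks. These genes held 974 of 167648 called peaks in the knockout immunoprecipitate (IP). In the control IPs they held 849 of 129323, 1044 of 153768 and 877 of 122284 peaks in controls 1 to 3.

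The peaks come from crosslinking and immunoprecipitation (CLIP) of the RNA-binding zinc finger protein Zmat3 in transformed mouse embryonic fibroblasts. The knockout group was 1 line of genotype Zmat3-/-;E1A;HrasG12V with no guide RNA. The control group was 3 lines of genotype Cas9+;E1A;HrasG12V, each with a different negative control guide, named EV, SPA and ACOCA (controls 1 to 3). Every line carried the viral oncoprotein E1A and oncogenic Hras, both delivered by retrovirus. The control lines also carried Cas9 and a guide and had been selected with puromycin for 3 days and grown for 10 more. Those features and the genotype cannot be told apart, and neither can the genotype and the 1 knockout line.

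For each of the 4 IPs there was a list of peaks over input, and for each control there was also a list of its peaks over the knockout IP. The 3 lists over the knockout IP share that 1 library and run as control over knockout, so a positive log2 fold means more signal in the control. Every peak in a list is referred to as a called peak. Enriched peaks are those whose log2 fold and −log10 p-value, as the authors computed them, both reach 3. Without read counts in the lists, depth is unknown, and folds are given without a counting interval. All SDs measure the spread between the 3 control lines, which the labels do not describe as separate derivations. The permutation p-values compare the 1 knockout library with the 3 controls. The −log10 p-values are the authors' own for each peak against its comparator and hold no spread between lines. With 1 library against 3, an exact permutation test cannot give a p below 0.25.

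The spliceosome removes introns from pre-mRNA. U1 recognises the 5′ splice site and U2 the branch site, after which the U4/U6.U5 tri-snRNP joins and RNA helicases rearrange the complex into its catalytic form. The protein-coding transcripts of these factors are themselves spliced, and several are known to be regulated at that step. CLIP reads mark where an RNA-binding protein touched RNA, and the IP from knockout cells measures what the antibody recovers when the protein is missing.

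Zmat3 itself had 38 called peaks over input in the knockout, against 42, 48 and 39 in controls 1 to 3, so its RNA was sampled in all 4 lines. Over input, control 2 had 1 enriched Zmat3 peak and the other IPs had none. Over the knockout IP, control 1 had 4 enriched Zmat3 peaks, control 2 had 16 and control 3 had 1. The background there was 0.621%, 1.09% and 0.648% of all called peaks in controls 1 to 3. Whether the level of Zmat3 RNA differed between the lines was not tested. Peaks on the RNA do not measure the loss of the protein. Of the 9 fibroblast markers, called peaks were found in 3 genes in the knockout and in 3, 4 and 3 genes in the controls. Col1a1, Col1a2, Thy1, S100a4 and Dcn had none in any IP. Of 10 markers of other cell types, 3 had called peaks in the knockout and 2, 4 and 2 in the controls. Cd68 and Epcam had called peaks in every IP, Krt18 in the knockout and control 2, and Des in control 2. Ptprc, Krt8, Pecam1, Cdh5, Alb and Tubb3 had none in any IP. The part of these differences in the results was not tested.

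In 4 core spliceosome genes, Prpf8, Sf3b3, Rbm25 and Eftud2, the same short stretch of RNA was enriched in all 3 control IPs, over input and over the knockout IP alike. The knockout IP had no called peak there. No peak in any of the 49 genes was enriched over input in the knockout. Such a stretch is called a region where at least 2 controls share it: in each of them a peak enriched over input had to share 1 nt or more, strand included, with an enriched peak from that control's list against the knockout IP. Since both comparisons chose the regions, their values and the missing knockout peaks are a description and carry no test.

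Prpf8 encodes the large U5 protein at the catalytic centre of the spliceosome. Its region lay on the plus strand of chromosome 11 at 75506226–75506323 (98 nt), within the gene span 75486777–75509447, at 86.0% of the way from the 5′ end. Over input the region had no called peak in the knockout, against log2 folds of 3.71, 5.23 and 3.24 in controls 1 to 3, with mean 4.06 ± 1.04 (SD, n = 3). Over the knockout IP the controls reached 3.99, 4.51 and 4.23, a mean of 4.24 ± 0.26 (SD, n = 3). Control 2 was the highest on both scales, and all 3 controls passed on both. The −log10 p-values of controls 1 to 3 over the knockout IP were 6.42, 20.6 and 7.82. The knockout nevertheless had 48 called peaks elsewhere in Prpf8, more than in any other member except Luc7l2, and the nearest, at 75506326–75506360, began 3 nt past the region with a log2 fold over input of −0.87.

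Sf3b3 encodes a subunit of SF3b, the U2 component that holds the branch site. Its region lay on the minus strand of chromosome 8 at 110826268–110826383 (116 nt), at 56.4% of the span 110810491–110846806. The knockout had no called peak there, and controls 1 to 3 had log2 folds over input of 3.22, 3.66 and 5.15, a mean of 4.01 ± 1.01 (SD, n = 3). Against the knockout IP they had 3.51, 3.36 and 4.55, a mean of 3.81 ± 0.65 (SD, n = 3). Control 3 was the highest on both scales. The knockout had 38 called peaks in the gene, the nearest 109 nt away with a log2 fold of −0.55.

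Rbm25 encodes an RNA-binding protein with an arginine-rich region that works with U1 in splice site choice. Its region lay on the plus strand of chromosome 12 at 83663849–83663948 (100 nt), at 62.2% of the span 83632208–83683127. The knockout had no called peak there, and controls 1 to 3 had log2 folds over input of 4.40, 4.24 and 3.08, a mean of 3.91 ± 0.72 (SD, n = 3). The folds over the knockout IP were 3.10, 4.52 and 4.81, a mean of 4.14 ± 0.91 (SD, n = 3). The order of the controls was turned round between the scales, with control 1 highest over input and lowest over the knockout IP. The knockout had 45 called peaks in the gene, the nearest 56 nt away with a log2 fold of −1.35.

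Eftud2 encodes the GTPase of the U5 particle, which binds Prpf8 in the assembled complex. Its region lay on the minus strand of chromosome 11 at 102860156–102860266 (111 nt), near the middle of the span 102838472–102880984 (48.9%). The knockout had no called peak there, and controls 1 to 3 had log2 folds over input of 3.12, 3.66 and 4.06, a mean of 3.61 ± 0.47 (SD, n = 3). Relative to the knockout IP the values were 3.41, 3.94 and 4.04, a mean of 3.80 ± 0.34 (SD, n = 3). This was the lowest mean of the 4 regions over input, and its −log10 p-value in control 1 was the closest to the threshold, at 3.24. The knockout had 32 called peaks in Eftud2, the nearest 58 nt away with a log2 fold of −1.94.

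**Figure D1:**
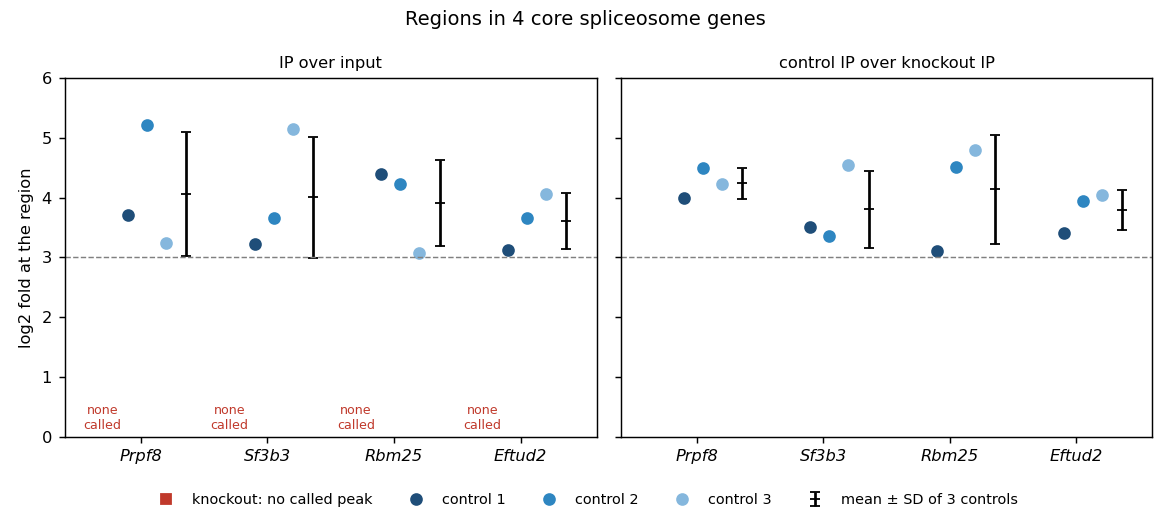
Log2 fold at the regions of Prpf8, Sf3b3, Rbm25 and Eftud2, over input on the left and as control over knockout IP on the right, with the dashed line at the threshold of 3. Points are the 3 control libraries, bars are mean ± SD of 3 controls, and the knockout had no called peak at any of the 4 regions; every control point lies above 3.

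The 4 genes had other called peaks throughout, and none of these was enriched over input in any control. In the control lists the region held the highest log2 fold of its gene, except in control 2 over the knockout IP for Sf3b3, where it was the second of the gene's peaks. In control 1, another Eftud2 peak tied with the region, at 3.12 over input and at 3.41 over the knockout IP, but was not enriched on either scale. The median of the other peaks of each gene over the knockout IP, minus the median of all called peaks of the list, lay between −0.87 and 0 in all 12 gene and control pairs. The rest of each gene thus did not stand above its list. Over the knockout IP, Rbm25 alone of the 4 genes held other enriched sites, each in 1 control: 83644234–83644341 in control 2 (4.0), and 83661393–83661456 (3.39) and 83662711–83662825 (3.09) in control 3.

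**Figure D2:**
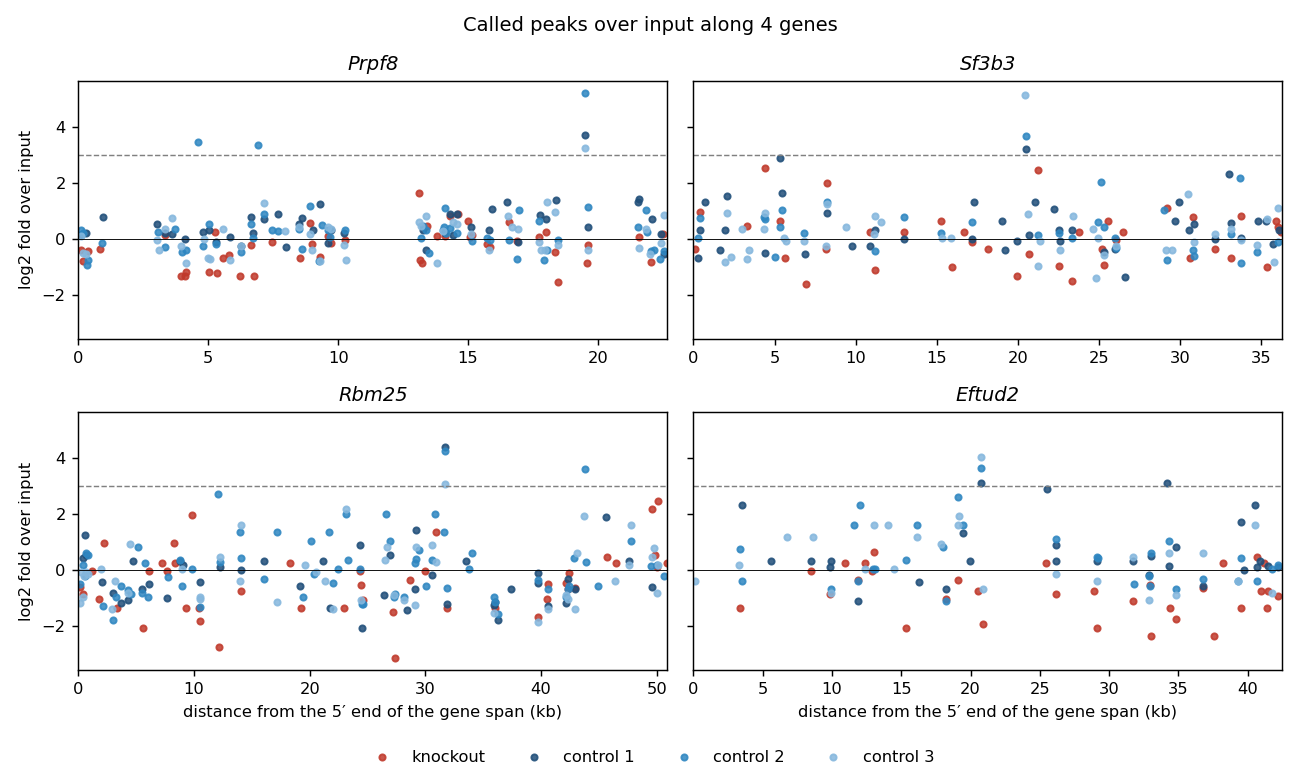
Called peaks over input along Prpf8, Sf3b3, Rbm25 and Eftud2, with the distance from the 5′ end of the gene span in kb and the log2 fold over input on the vertical axis, coloured by IP library. The 3 control points of each region stand above the dashed threshold at 3, and knockout points are spread along all 4 genes below it.

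Among 203 regions in the whole data, 77 of them in all 3 controls, the 4 regions held ranks from 72 to 144. By mean log2 fold over input, Prpf8 stood at 72, Sf3b3 at 78, Rbm25 at 92 and Eftud2 at 130. By mean log2 fold over the knockout IP they stood at 109, 142, 116 and 144 in the same gene order. The median over all 203 regions was 3.79 over input and 4.31 over the knockout IP, and their median length was 114 nt. All 4 regions lay below the median over the knockout IP, and Eftud2 alone lay below it over input.

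As a count over genes, 4 of the 48 members with called peaks in all 3 controls had a region (8.33%), against 2.28% of the 8571 protein-coding genes with called peaks in all 3 controls. All 4 had support from all 3 controls, which held for 0.887% of those genes. The members were sampled more densely, with a median of 15 called peaks per gene against 8.67 over all genes. Among genes with at least 5 called peaks in each control, 4 of 40 members had a region (10%), against 3.45% of 4980 genes. This floor does not match the groups for called peaks per gene. As means over controls, Prpf8 had 51 called peaks, Sf3b3 38, Rbm25 53.7 and Eftud2 28. The number of members is small, they were chosen with earlier results of these data known, and these shares carry no test.

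Over input, the members' enriched peaks numbered 0 in the knockout, against 4, 9 and 4 in controls 1 to 3. As a share of called member peaks that was 0% in the knockout, where a count of 0 in 974 allows up to 0.308%, and 0.471%, 0.862% and 0.456% in the controls (mean 0.596% ± 0.230, SD, n = 3). The background share over all called peaks was 0.316% in the knockout and 1.02%, 1.05% and 0.494% in controls 1 to 3. The limit of 0.308% is 3 counts over 974 peaks and takes the peaks as independent. Peaks of 1 library in 49 genes need not be, so no difference from the background is read from it. The members lay below the background in each list, but in control 3 their share was close to it. The knockout share lay below all 3 controls (exact two-sided permutation test, p = 0.25, the smallest this design allows). Counted by gene, 0 of 49 members had an enriched peak in the knockout (background 2.5%), against 8.33%, 18.4% and 8.33% of members in the controls (background 6.73%, 11% and 3.62%). These shares by gene were not matched for called peaks. Among genes with called peaks in all 3 controls, members had a median of 15 per gene, against 8.67 over all genes.

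Controls 1 and 3 were enriched over input in the same 4 genes, Prpf8, Sf3b3, Rbm25 and Eftud2, with 1 peak each. Control 2 had these and 1 peak in each of Sf3b1, Sf3a2, Ddx46, Prpf3 and Aqr. Control 2 also had the most called peaks of the 3 controls.

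Over the knockout IP, 6, 18 and 10 member peaks were enriched in controls 1 to 3 (mean 11.3 ± 6.11, SD, n = 3). These were 0.707%, 1.72% and 1.14% of called member peaks, against a background of 0.621%, 1.09% and 0.648%. The share was close to the background in control 1 and above it in controls 2 and 3. By gene the enriched peaks fell in 12.5%, 26.5% and 16.7% of members, against 5.32%, 11.8% and 5.66% of protein-coding genes. These shares, too, were not matched for the number of called peaks per gene.

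**Figure D3:**
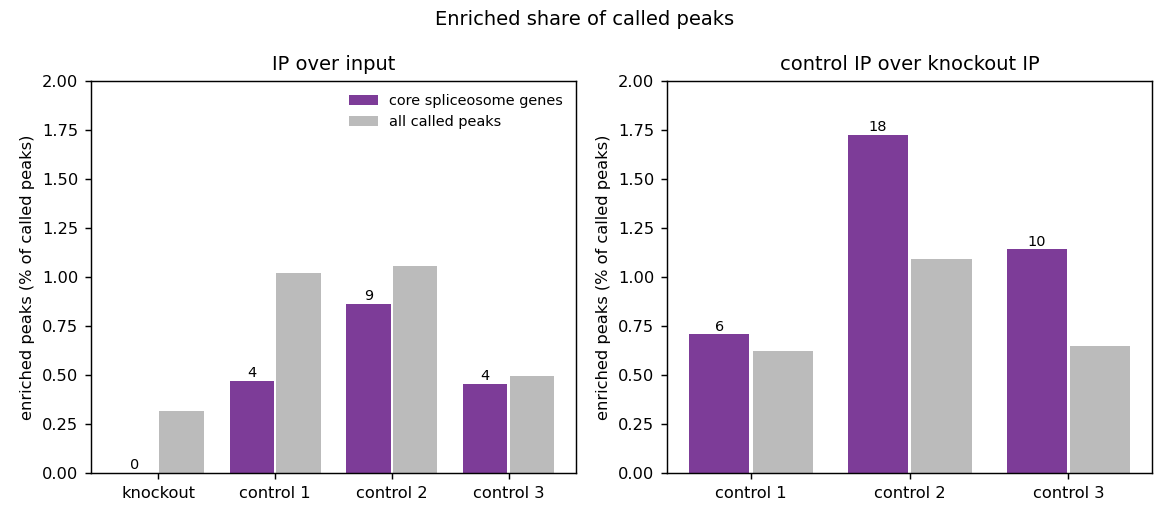
Share of called peaks that were enriched, in percent, for core spliceosome genes (purple, with the number of enriched peaks above each bar) and for all called peaks (grey), over input on the left and over the knockout IP on the right. The purple bars lie below the grey ones in every library over input, with 0 enriched peaks in the knockout, and above them in all 3 controls over the knockout IP.

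Merged across controls, the peaks enriched over the knockout IP made 20 sites in 13 members, and the other 36 members had none. The knockout had no called peak over input at any of the 20 sites. Sites were chosen as enriched over that same IP, which favours such an absence, and the share over all such sites is not given. At 9 sites, in 9 members, at least 2 controls were enriched (18.8% of 48 members against a background of 5.62% of 8571 genes; 22.5% against 8.57% among genes with at least 5 called peaks in each control). Besides the 4 regions, these were in Srrm2, Sf3b1, Snrnp48, Luc7l2 and Prpf38b. Of the 11 sites found in 1 control, 9 were from control 2. As with the regions, the shares of members were not matched for called peaks per gene and carry no test.

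Srrm2, the large serine- and arginine-rich scaffold protein of nuclear speckles, was enriched over the knockout IP in all 3 controls without passing over input. The site lay on chromosome 17 at 23822297–23822383, at 93.0% of the gene span. Over input its log2 folds were 1.96, 2.43 and 2.34 in controls 1 to 3 (mean 2.25 ± 0.25, SD, n = 3), with no called peak in the knockout. The folds over the knockout IP were 3.71, 3.30 and 3.14 (mean 3.38 ± 0.29, SD, n = 3). The controls lay close together on both scales, and only the threshold over input kept the site out of the regions.

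Sf3b1, the largest SF3b subunit, which touches the branch site, held a site on chromosome 1 at 55003502–55003590. Set against the knockout IP, the controls had 3.41, 5.00 and 4.04 (mean 4.15 ± 0.80, SD, n = 3), and over input 2.12, 4.72 and 3.06 (mean 3.30 ± 1.31, SD, n = 3), with no called peak in the knockout. Control 1 missed the p-value threshold on both scales and control 3 missed it over input, at a −log10 p-value of 1.77, so that control 2 alone qualified.

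Snrnp48, a protein of the U11/U12 particle that recognises minor introns, held a site on chromosome 13 at 38216109–38216233 with 4.06, 4.62 and 3.58 over the knockout IP in controls 1 to 3. Over input the same controls had 1.77, 2.75 and 2.60, and the knockout had no called peak. Luc7l2, a U1-associated protein, had 2.60, 4.30 and 4.39 over the knockout IP at chromosome 6, 38568688–38568833, but only 0.73, 2.02 and 1.40 over input. Prpf38b, a relative of the tri-snRNP protein Prp38, had 2.30, 4.76 and 3.67 over the knockout IP at chromosome 3, 108908424–108908538, and 2.02, 2.60 and 1.68 over input. At these 3 sites the controls were all above 0 on both scales, and all were under the threshold of 3 over input.

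**Figure D4:**
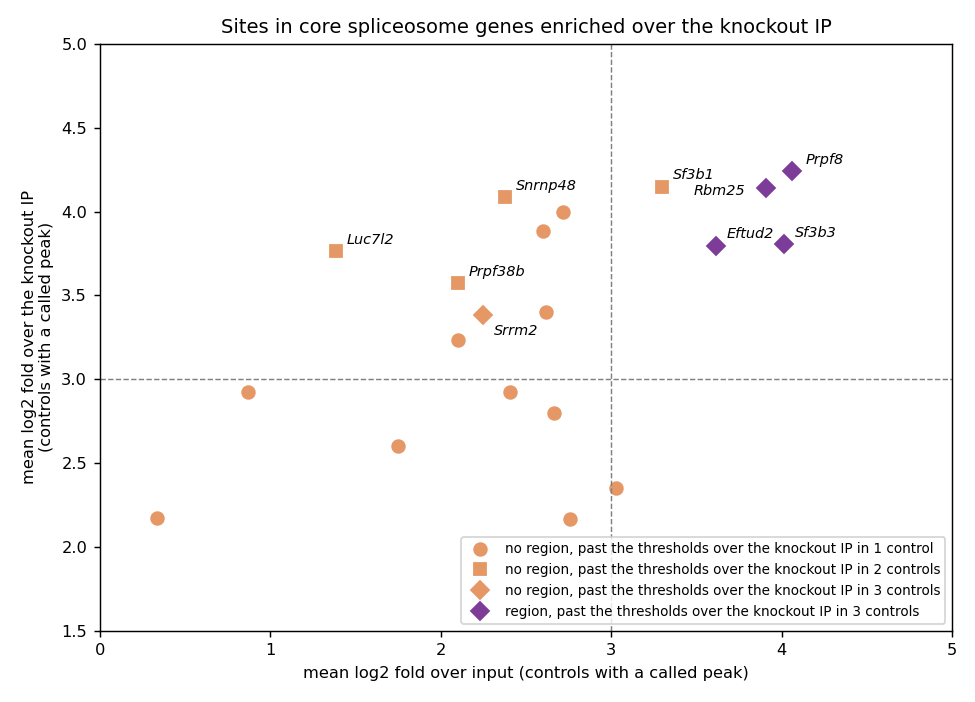
Mean log2 fold over the knockout IP against mean log2 fold over input for the 20 sites enriched over the knockout IP in at least 1 control, with dashed lines at 3 on both axes. The 4 regions (purple diamonds) and Sf3b1 lie above 3 on both axes, whereas Srrm2, Snrnp48, Luc7l2 and Prpf38b lie above 3 over the knockout IP and below 3 over input.

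A further 3 genes had a peak that qualified on both scales in control 2 but in no other control. Aqr, the intron-binding helicase of the activated spliceosome, had log2 folds over input of 2.90, 4.26 and 1.92 in controls 1 to 3 and 2.18, 3.55 and 1.32 over the knockout IP (chromosome 2, 114141065–114141170). Prpf3, a protein of the U4/U6 particle, had 1.54, 3.97 and 2.77 over input and 1.82, 3.25 and 1.43 over the knockout IP (chromosome 3, 95833871–95833962). Ddx46, the helicase known in yeast as Prp5 that helps U2 bind the branch site, had 2.31, 3.72 and 1.18 over input and 2.60, 4.0 and 2.17 over the knockout IP (chromosome 13, 55677402–55677481). Control 2 was the highest at all 3 sites on both scales, controls 1 and 3 had peaks above 0 there, and the knockout had none called.

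By role, and beside the background of 2.28% of genes, regions fell in 2 of 11 U5 and tri-snRNP members, 1 of 12 U2 and branch site members and 1 of 5 SR-related members. None was found in the 7 U1 and U1-associated members, the 4 Sm proteins, the 5 Prp19 and activated complex members, the 4 DEAH-box helicases or the 1 U11/U12 member. The Sm proteins, which form the ring around each snRNA, and the DEAH-box helicases, which drive the later remodelling steps, also had no peak enriched over the knockout IP in any control. In groups this small a count of 0 is also what the background share gives, so nothing is read from it. The Sm genes were thinly sampled, with 25 called peaks in the knockout and 25, 26 and 28 in the controls. The helicases had 85 called peaks in the knockout and 56, 69 and 56 in the controls.

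The number of called peaks differed widely between members. Luc7l2 had the most, with 58 in the knockout and 50, 65 and 53 in controls 1 to 3, followed by Rbm25 (45 in the knockout; 44, 69 and 48 in the controls) and Prpf8 (48 in the knockout; 45, 58 and 50 in the controls). Srrm2 had 43 in the knockout and 40, 40 and 48 in the controls, and the U5 helicase Snrnp200 had 41 in the knockout and 39, 41 and 35 in the controls. Of these 5, Rbm25 and Prpf8 held a region. Per kilobase of gene span, Prpf8 was the most densely covered member, with 2.25 called peaks per kb as a mean over controls.

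Crnkl1, a scaffold protein of the activated spliceosome, was the least covered, with 2 called peaks in the knockout and 0, 2 and 0 in the controls, or 0.0387 per kb in the controls. Cdc5l, a Prp19 complex protein, had 2 in the knockout and 3, 2 and 1 in the controls. The U1 protein Snrpc had 2 in the knockout and 1, 4 and 2 in the controls, and the Sm protein Snrpd2 had 2 in the knockout and 3, 2 and 3 in the controls. Sf3b4, an SF3b subunit, had 4 in the knockout and 4, 5 and 2 in the controls. With so few peaks, the lack of a region in these 5 genes says little about them.

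**Figure D5:**
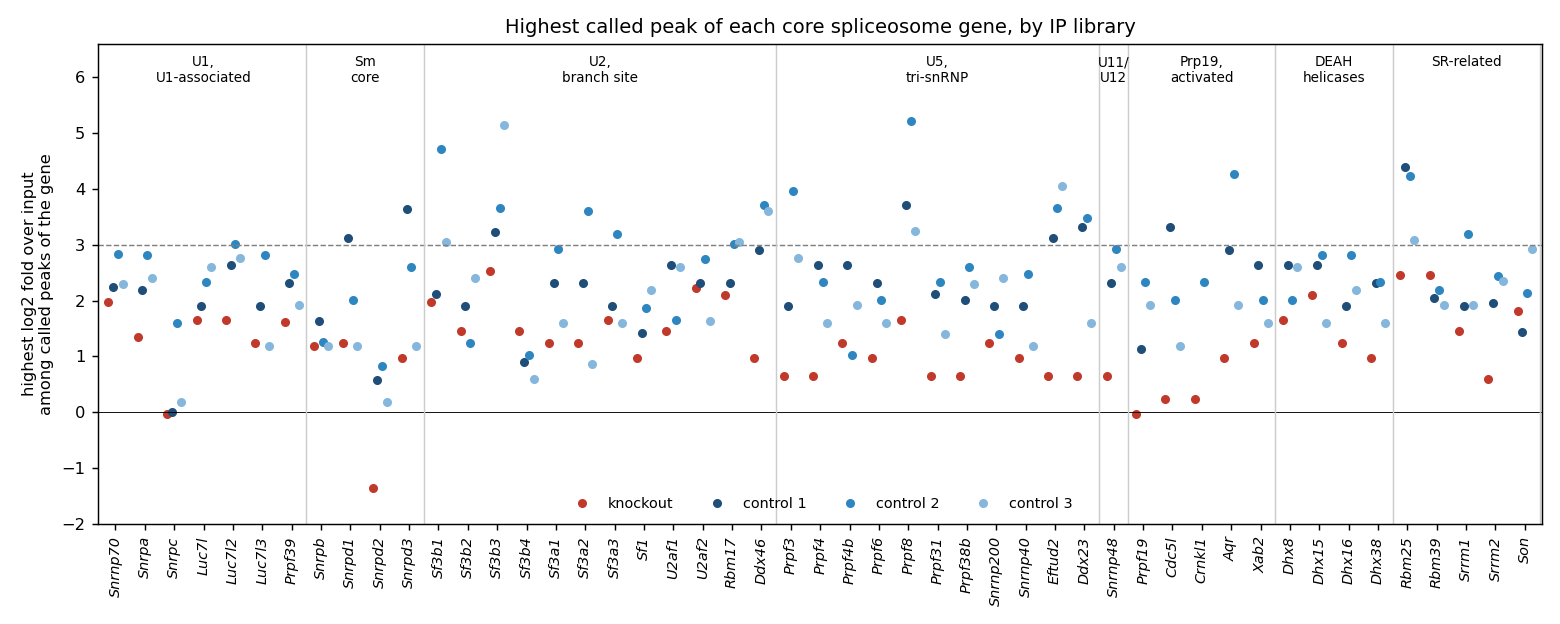
Highest log2 fold over input among the called peaks of each of the 49 genes, grouped by role, for the knockout (red) and controls 1 to 3 (blue), with the dashed line at 3. The knockout point is the lowest in most genes and never reaches 3, its highest value being 2.53 in Sf3b3.

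The highest peak of a gene was lower in the knockout than in all 3 controls in 36 of 48 members (75%), against 66.3% of 8232 genes. It was higher in the knockout than in all 3 controls in Rbm39 and Sf3b4 (4.17% of members, against 4.41% of genes). These shares are near the background, so the order seen in the members was also that of genes at large.

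Most member peaks were not enriched at all. Their median log2 fold over input stood at −0.35 in the knockout and 0.31, 0.21 and 0.08 in controls 1 to 3, with a control mean of 0.20 ± 0.12 (SD, n = 3). The knockout lay below all 3 controls, with a difference of −0.55 (exact two-sided permutation test, p = 0.25). The median of all called peaks was shifted in the same way, at 0.23 in the knockout and 0.90, 0.60 and 0.60 in the controls. Set against it, the members stood at −0.58 in the knockout and −0.58, −0.39 and −0.51 in the controls (mean −0.50 ± 0.10, SD, n = 3). That left a difference of −0.088 between knockout and controls, within the spread of the controls (exact two-sided permutation test, p = 0.75).

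Over the knockout IP, the median of member peaks was 0.82, 0.71 and 0.74 in controls 1 to 3, and that of all called peaks was 1.18, 0.88 and 1.00. The members thus lay below their list in all 3 controls, by −0.26 ± 0.10 (SD, n = 3). Their enriched share over the knockout IP was nevertheless above the background in controls 2 and 3, and close to it in control 1. Among the 40 members with at least 5 called peaks in each control, 1 had a gene median above that of the list in all 3 controls (2.5%, against 20% of the 4980 genes so covered). A median below that of the list in all 3 controls was found in 17 (42.5%, against 24.3%).

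Among these 40 members, the highest gene medians over the knockout IP, as means over controls, were those of the U4/U6 protein Prpf4 (1.36 ± 0.32), Snrnp48 (1.29 ± 0.05), the SF3a subunit Sf3a2 (1.18 ± 0.31), the helicase Dhx38 (1.15 ± 0.50) and the U5 protein Snrnp40 (1.13 ± 0.29; SD, n = 3 each). None of the 5 had a region. The lowest of the 40 were the helicase Dhx15 (0.24 ± 0.09), Prpf8 (0.41 ± 0.16), the polypyrimidine tract-binding U2 auxiliary factor U2af2 (0.44 ± 0.15), Snrnp200 (0.49 ± 0.15) and Sf3b1 (0.52 ± 0.16; SD, n = 3 each). Prpf8 therefore combined a region with the second lowest gene median of the 40.

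The called peaks over input of the 4 IPs were also merged into sites, giving 1884 sites in the members out of 394888. Peaks were called in all 4 IPs at 257 member sites (13.6%, against 4.08% of all sites). At 73 member sites peaks were called in all 3 controls and not in the knockout (3.87%, against 1.91%), and at 308 in the knockout alone (16.3%, against 24.6%). The members' share was thus larger with and without the knockout. Relative to sites in all 4 IPs, sites lacking only the knockout were fewer in members (73 beside 257) than over all sites (7530 beside 16093). Ordered by their lowest control, the first 4 of the 73 sites were the regions of Prpf8, Sf3b3, Eftud2 and Rbm25. The lowest control of the Rbm25 region was 3.08. Next came Sf3b1 with a lowest control of 2.12, Prpf38b with 2.02 over a wider merged site that ends at 108908609, Srrm2 with 1.96 and Aqr with 1.92. The threshold of 3 that defines a region puts the regions first in this order.

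At the 257 shared sites the median over input was a log2 fold of −0.53 in the knockout and 0.18, 0.02 and −0.11 in controls 1 to 3. All 3 controls were above the knockout at 138 of these sites (53.7%, against 53.2% of all sites called in all 4 IPs). All 3 were below it at 35 (13.6%, against 12%). These shares were close to those of all genes.

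In the knockout, 3 member peaks reached a −log10 p-value of 3 over input, all below the fold threshold. They were 0.308% of called member peaks, below the background of 0.629% of all called peaks. Of the 3 member peaks, both in Sf3b3 lay over small nucleolar RNA (snoRNA) genes within its span, and the other was in Snrpb. The Sf3b3 peak at 110842387–110842455 overlapped the snoRNA gene LOC115485679 and had a log2 fold of 2.53 in the knockout, against −0.53, 0.77 and 0.92 in controls 1 to 3 (mean 0.39 ± 0.80, SD, n = 3). The other Sf3b3 peak, at 110838538–110838588, overlapped Snord111 and had 1.98 in the knockout, against 0.91, 1.31 and 1.24 in the controls (mean 1.15 ± 0.22, SD, n = 3). At both, the knockout was above all 3 controls over input. The direct lists did not show the same order: control over knockout IP, controls 1 to 3 had −1.14, 0.27 and 0.24 at LOC115485679 and −0.56, 0.14 and 0.03 at Snord111. Neither site lay in the Sf3b3 region.

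Snrpb, which encodes the Sm protein B, had a peak on chromosome 2 at 130172910–130172982 with a log2 fold over input of 1.19 in the knockout, against −1.45, −0.15 and −0.23 in controls 1 to 3 (mean −0.61 ± 0.73, SD, n = 3). The knockout and the controls lay on opposite sides of 0 there. At the Prpf39 snoRNA Gm25970 the knockout had 1.62, against 0.11 and 0.33 in controls 2 and 3. At the Sf3b4 snoRNA Gm22027 all 4 IPs were below 0, at −1.55 in the knockout and −1.75, −0.85 and −1.50 in the controls. The microRNA genes Mir697, Mir5125 and Mir7002, which lie in Sf3a3, Srrm2 and Aqr, had no called peak in any IP.

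Called member peaks were spread along the gene spans without a visible shift between knockout and controls. The last 10% of the span held 14.4% of them in the knockout and 12.6%, 12.2% and 13.3% in controls 1 to 3, and the first 10% held 10.3% in the knockout and 12.8%, 9.48% and 10.4% in the controls. Of the regions, Prpf8 lay nearest to a gene end, 3172 nt from the 3′ end of its span. Whether a region lies in an exon or an intron was not analysed here.

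Other spliceosome and exon junction genes also held regions. Of 98 such genes outside the 49, 81 had called peaks in all 3 controls and 6 of these had a region (7.41%, against the same 2.28% of protein-coding genes). The list was drawn up with a Cactin region already known, so its shares are a description and carry no test. Snrpa1, the U2 protein A′, had log2 folds over the knockout IP of 4.41, 5.02 and 4.42 in controls 1 to 3. Cactin had 5.30, 6.65 and 5.54. Both had a region in all 3 controls, as did 3 of the 81 genes in all (3.70%, against 4 of 48 core members). Without control 2, the number of these genes with a region was 3 in place of 6. The number of core members stayed at 4, which follows from their support by all 3 controls. The splicing regulator Rbm5 (mean 4.87 ± 1.07, SD, n = 3), the helicase Dhx35 (3.45 ± 0.04, SD, n = 3) and the cyclophilin Ppil2 (3.53 ± 0.49, SD, n = 2) had a region in 2 controls. The knockout had no called peak at any of the 6 regions, which were chosen in part by enrichment over its IP. A site enriched over the knockout IP in at least 2 controls was found in 9 of the 81 genes (11.1%), against 18.8% of the core members.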

How the data were processed

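Per the labels, lysates of UV-crosslinked cells were treated with RNase, Zmat3 was immunoprecipitated, and RNA running at 35 to 110 kDa was sequenced beside input. The authors deposited 7 peak lists on mm10, the build in the submitters' processing notes. Each peak carries the authors' −log10 p-value and the authors' log2 fold against the named comparator. The lists have no header, so these units were read from the values: the −log10 p-value is at most 400 and is 0 wherever the log2 fold is below 0. The aligner, the peak caller and the handling of duplicates and of peaks without comparator reads were not given in the sources used here. Inputs have no list of their own and entered only through the authors' folds.

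From the lists, enriched peaks, regions (thresholds of 3 and 3, at least 1 nt overlap, at least 2 controls) and medians were computed with Python 3.11.15, numpy 2.4.6 and pandas 2.3.3. Regions were called on the whole lists before member peaks were taken. In a region or site, a library's value is its overlapping peak with the highest log2 fold. The major strand equalled the annotated strand in all 40 members for which RefSeq's promoter table gave one. In 3 members, 18 peaks lay on the other strand over the 7 lists, and none was enriched. Region calling was tested on simulated data. Libraries were compared by exact permutation, and member shares by the same share over all peaks or genes.

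The members and gene lists were chosen with earlier results of these data known. Named genes were those with a region, those with a qualifying peak in 1 control, the 5 with most and the 5 with fewest called peaks, the 5 highest and 5 lowest gene medians over the knockout IP, other-list genes with a region, and Zmat3. The values of 1 other-list gene are not reported here. Srrm2, Snrnp48, Luc7l2, Prpf38b, Sf3a2, Snrpb, Prpf39, Sf3b4, Rbm39, the small RNA genes and Snrnp70 were named, where they fall outside that rule, after their values were seen. Alternatives were other thresholds, overlaps, gene assignments and numbers of controls, leaving out each control, and leaving out peaks over small non-coding genes of at most 500 nt, the last added after the data were seen.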

Additional observations from a re-analysis of the deposited data

Results flagged for a closer look

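The median log2 fold over input of core spliceosome gene peaks was −0.35 in the knockout and above 0 in all 3 controls, at 0.31, 0.21 and 0.08. The difference is in the direction of all called peaks, and it was −0.088 once each list's own median was taken off. That the groups lie on opposite sides of 0 was not tested beyond the exact permutation test of the medians, which cannot go below p = 0.25.

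At the Snrpb site on chromosome 2, 130172910–130172982, the knockout had a log2 fold over input of 1.19 and the 3 controls lay below 0, at −1.45, −0.15 and −0.23. This difference was not tested.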

How the results depend on the processing

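Of 67 alternatives over the 7 results, 51 left the value within 1.5 times the reported count, or for medians within 1 SD of the controls, 15 moved it further and 1 reversed its sign. The mean number of member peaks enriched over input per control was 5.67, against 0 in the knockout. It became 11.3 (1 in the knockout) at a log2 fold of at least 2, 2.33 at 4 and 3.33 at a −log10 p-value of at least 5, and lay between 4.0 and 6.50 without 1 control. Over the knockout IP the mean of 11.3 became 21.7, 4.67 and 6.0 under the same settings, and lay between 8.0 and 14.0 without 1 control. The 4 regions became 7 at a log2 fold of at least 2, with Srrm2 and Snrnp70 added among the genes, and 0 at 4, so the number of genes with a region was also 0 there. At a −log10 p-value of at least 5, Eftud2 lost its region and 3 genes kept theirs. The regions stayed at 4 when any 1 control was left out. That follows from the rule, as all 4 had support from 3 controls and 2 are needed. Other spliceosome genes with a region numbered 6, but 3 at a log2 fold of at least 4, at a −log10 p-value of at least 5 and with support by all 3 controls, and between 3 and 5 without 1 control; the 3 came without control 2. The knockout minus control median over input was −0.55 and became −0.088 after each list's median was taken off; it lay between −0.61 and −0.50 without 1 control. The median over the knockout IP was 0.76; it became 0.87 over gene medians and −0.26 after each list's median was taken off, the 1 reversal, and lay between 0.73 and 0.78 without 1 control. The changes on taking off list medians follow from the subtraction, and fewer or more peaks pass other thresholds by construction; for the change over gene medians the cause was not tested. No paired analysis was possible because the control and knockout lines share fewer than 2 replicate numbers. Depth is unknown, and low values in thinly covered genes such as Crnkl1 and Cdc5l cannot be judged.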

Other observations

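Snrnp70, the U1 protein that binds the first stem of U1 snRNA, held 2 neighbouring sites on the minus strand of chromosome 7. Each passed a log2 fold of 2, the lower setting, in 2 controls. These were controls 2 and 3 at the first site and controls 1 and 2 at the second. The knockout had a peak at both sites. At 45381049–45381135 the knockout had a log2 fold over input of 1.97, against 1.96, 2.08 and 2.29 in controls 1 to 3, and the controls had 2.25, 2.48 and 2.85 over the knockout IP. At 45381136–45381310 it was −0.06 in the knockout and 2.24, 2.84 and 1.96 in the controls, which had 2.98, 2.91 and 2.85 over the knockout IP. The 2.85 of control 3 is the same peak at both sites, as it reaches into the edge of the first. At the knockout's own peak in the first site, 45381080–45381114, control 3 had 2.78 over the knockout IP. The controls and the knockout overlapped at the first site over input and did not overlap at the second.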
